A study of Mus musculus with 2 samples.

Results

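The 9 genes described here make, break down and carry retinoic acid in the embryo. They were taken by gene symbol, by a rule that used no measured value but was set with earlier results of these data known, and all 9 were found among the 43346 genes of the series. The series measured RNA of the neural tube, from which brain and spinal cord develop, in healthy B6NCrl mouse embryos at embryonic day 11.5, in an assay titled total RNA-seq. The labels also link a general protocol named SmartSeq, so how the RNA was primed is not settled here, and with it how far retained intron forms and transcript shares depend on the library type. It held 1 group of 2 libraries, each made from 10 ng of RNA over 200 bases. Replicate 1 of these labelled biological replicates was a pool of 109 embryos and replicate 2 a pool of 88 embryos, both of mixed sex, with no allele, agent or other age. Replicate 1 held 27638068 expected counts (estimated reads) and replicate 2 held 29166901, of which the 9 genes took 18367 and 20598.

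Retinoic acid is a small signal made from vitamin A. Retinol is oxidised to retinaldehyde by dehydrogenases such as Rdh10, Dhrs3 reduces retinaldehyde back to retinol, and the Aldh1a enzymes oxidise retinaldehyde irreversibly to retinoic acid. The Cyp26 enzymes oxidise retinoic acid to inactive products, and the Crabp proteins bind it in the cytoplasm. In the embryonic trunk the signal is known to come from somites and later from motor neurons and meninges, and to act on neuronal differentiation and on patterning of the spinal cord and hindbrain. It acts through nuclear receptors that bind repeated hexamers in DNA.

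Promoter sequences are shown for 3 of the genes. Cyp26a1 holds a repeat of the receptor type, Cyp26c1 is its neighbour on chromosome 19, and Aldh1a2 is the synthesis gene with the highest level. Each runs 5′ to 3′ along the plus strand, which is the strand of all 3 genes, from 250 bases before to 50 bases after the RefSeq start (GRCm38.p6). Capitals mark the repeat, with both hexamers and their spacer, and sequences without capitals held none.
Cyp26a1, chr19:37697558-37697857: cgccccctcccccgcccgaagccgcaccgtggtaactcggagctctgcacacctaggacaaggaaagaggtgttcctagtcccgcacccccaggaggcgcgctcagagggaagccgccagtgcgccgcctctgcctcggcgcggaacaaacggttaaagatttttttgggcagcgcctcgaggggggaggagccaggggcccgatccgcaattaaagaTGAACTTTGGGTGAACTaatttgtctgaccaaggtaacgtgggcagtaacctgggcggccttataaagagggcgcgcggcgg
Cyp26c1, chr19:37685430-37685729: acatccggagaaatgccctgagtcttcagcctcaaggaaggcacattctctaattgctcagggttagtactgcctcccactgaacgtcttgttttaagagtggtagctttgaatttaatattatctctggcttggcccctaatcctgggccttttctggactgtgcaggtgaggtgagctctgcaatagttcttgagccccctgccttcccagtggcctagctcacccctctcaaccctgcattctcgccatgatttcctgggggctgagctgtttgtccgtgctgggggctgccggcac
Aldh1a2, chr9:71215539-71215838: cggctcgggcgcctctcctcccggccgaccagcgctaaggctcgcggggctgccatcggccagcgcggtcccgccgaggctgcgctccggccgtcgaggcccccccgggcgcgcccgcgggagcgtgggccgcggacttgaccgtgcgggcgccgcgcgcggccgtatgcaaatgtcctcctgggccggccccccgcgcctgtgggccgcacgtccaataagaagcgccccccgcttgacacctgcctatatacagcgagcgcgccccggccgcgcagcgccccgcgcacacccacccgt

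The motif searched was a direct repeat of the hexamers that start with A or G, go on with G, then have G or T, and end in TCA, in any pairing, with 1, 2 or 5 bases between them, on both strands. RefSeq windows were at hand for 7 of the 9 genes, 10 windows in all, with 3 for Dhrs3 and 2 for Aldh1a1. The window of Cyp26a1 held a repeat with 5 bases between the hexamers, and no other window of the set held any of the 3 repeats. That repeat lay on the minus strand, 32 to 16 bases before the start, and overlapped none of the other repeats searched. Rarb, a receptor gene long known to respond to retinoic acid, also held a repeat with a spacer of 5 bases, 53 to 37 bases before its start (chr14:16575513-16575529). Both repeats are written here along the strand that carries the hexamers, the minus strand in each case, with the hexamers in capitals.
Cyp26a1: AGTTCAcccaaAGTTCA
Rarb: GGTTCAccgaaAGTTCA
Over all 32851 promoter windows of this length, 0.0974% held a repeat with 5 bases between hexamers, 0.268% held 1 with 2 bases and 0.222% held 1 with 1 base. A single hexamer was found in 43.7% of windows. These matches describe letters in the window and were not tested for binding.

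The genes fell into a high and a low set. TPM is a share of transcripts, corrected for length and scaled to a common total, and detection required at least 1 TPM in each library. By this rule 7 of the 9 genes passed, beside 33.0% of all 43346 genes and 59.9% of the 21474 protein-coding genes. Crabp1, Crabp2, Dhrs3 and Aldh1a2 ranked 178, 246, 1648 and 2076 among protein-coding genes by mean TPM. The other 3 detected genes, Cyp26a1, Cyp26b1 and Aldh1a3, ranked between 12132 and 12954. Between Aldh1a2 and Cyp26a1, neighbours in the order, the means differed 39.2-fold.

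**Figure D1:**
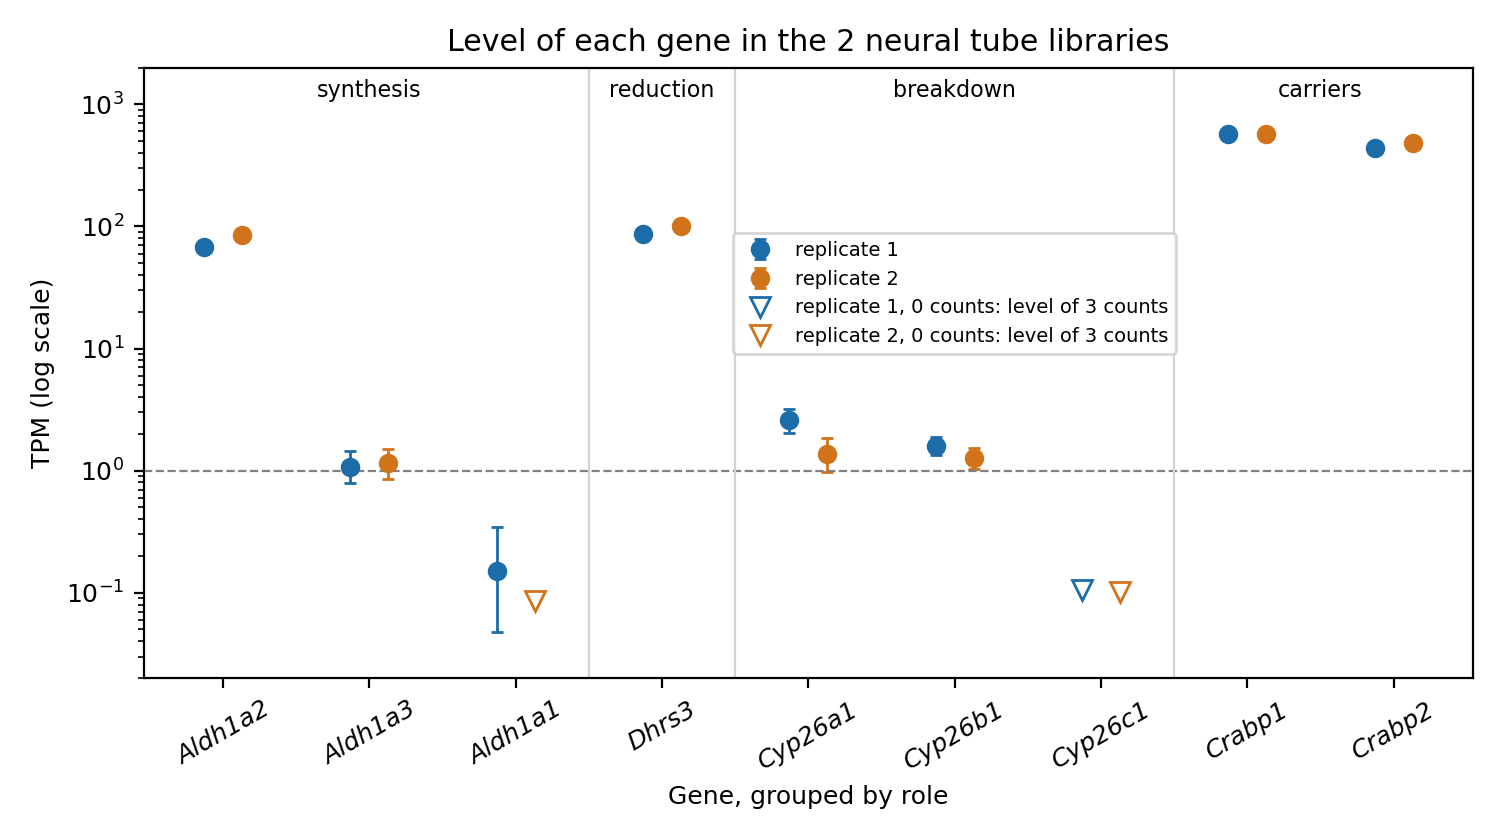
The plot gives the TPM (log scale) of each gene in replicate 1 and replicate 2, with bars for exact Poisson 95% intervals of the counts, which cover counting error only. Crabp1, Crabp2, Dhrs3 and Aldh1a2 lie above 60 TPM in both libraries, the other genes lie below 3 TPM, and open triangles mark the level that 3 counts would give where a library had 0 counts; the dashed line is 1 TPM.

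Synthesis rested almost wholly on Aldh1a2 transcripts. Aldh1a2, the main retinaldehyde dehydrogenase of the embryonic trunk (ENSMUSG00000013584.5, chromosome 9, 71215789 to 71296243, GRCm38), had 68.6 TPM in replicate 1 and 85.9 TPM in replicate 2, from 2582 and 3339 expected counts. Its mean was 77.2 ± 12.3 TPM (SD, n = 2), above 83.9% of detected protein-coding genes. Both libraries were far above the other synthesis genes, and replicate 2 was the higher.

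Aldh1a3, known for retinoic acid synthesis in the eye and nasal region (ENSMUSG00000015134.10, chromosome 7, 66390890 to 66427517), had 1.08 and 1.15 TPM, from 45 and 52 expected counts. Both values lay just above the detection threshold, and the exact Poisson 95% intervals, 0.790 to 1.45 TPM in replicate 1 and 0.860 to 1.51 TPM in replicate 2, crossed it. Aldh1a1, the enzyme of dorsal retina and many adult tissues (ENSMUSG00000053279.6, chromosome 19, 20492715 to 20643465), had 0.15 TPM from 5 expected counts in replicate 1 and 0 counts in replicate 2. For the count of 0 the level of 3 counts is 0.0855 TPM. The exact Poisson 95% interval runs from 0.0478 to 0.343 TPM in replicate 1 and from 0 to 0.105 TPM in replicate 2. These intervals overlap, so a difference was not detectable at this depth. The log2 ratio of Aldh1a2 to Aldh1a3 was 5.99 in replicate 1 and 6.22 in replicate 2, a mean of 6.11 ± 0.17 (SD, n = 2) or 68.9-fold. Aldh1a2 made up 98.2% and 98.7% of the summed TPM of the 3 synthesis genes.

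Of the 6 marker genes of eye and forebrain, regions where Aldh1a1 and Aldh1a3 are known to act, none reached 1 TPM in both libraries, and Six6 had 0 counts in both. Their summed level was 1.17 TPM in replicate 1 and 0.95 TPM in replicate 2. Aldh1a7, a close relative of Aldh1a1 and its nearest protein-coding neighbour, had 9 expected counts in each library. It shared 1 of 4934 windows of 100 bases with Aldh1a1 transcripts.

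Dhrs3, the reductase that returns retinaldehyde to retinol (ENSMUSG00000066026.10, chromosome 4, 144892827 to 144928209), had 87.5 and 101 TPM, from 2216 and 2688 expected counts, a mean of 94.4 ± 9.68 TPM (SD, n = 2). It stood next above Aldh1a2 in the order. The lowest Dhrs3 value was 87.5 TPM and the highest Aldh1a2 value 85.9 TPM, so these neighbours did not overlap, but the gap was smaller than the SD of either gene. Dhrs3 was the higher within each library. Rdh10, the retinol dehydrogenase that works in the opposite direction and is not one of the 9 genes, had 13.4 and 15.6 TPM. The log2 ratio of Dhrs3 to Rdh10 was 2.70 in replicate 1 and 2.69 in replicate 2, a mean of 2.70 ± 0.0057 (SD, n = 2) or 6.49-fold.

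Transcripts of the breakdown enzymes were scarce. Cyp26a1, the enzyme of early embryo and tailbud that retinoic acid itself is known to induce (ENSMUSG00000024987.5, chromosome 19, 37697798 to 37701536), had 2.58 TPM in replicate 1 and 1.36 TPM in replicate 2. These rested on 75 counts (exact Poisson 95% interval 59.0 to 94.0) and 41 counts (29.4 to 55.6), and the intervals did not overlap. This is the gene whose promoter carries the repeat shown in capitals.

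Cyp26b1, the enzyme of hindbrain and limb bud among other places (ENSMUSG00000063415.8, chromosome 6, 84571414 to 84593908), had 1.60 and 1.27 TPM from 128 and 105 expected counts. Its length of 4700 bases gives more counts per TPM than the 1773 bases of Cyp26a1. Cyp26c1, known from hindbrain and head (ENSMUSG00000062432.4, chromosome 19, 37685581 to 37693398), had no count in either library. Counts of 0 set upper limits of 0.105 TPM (replicate 1) and 0.101 TPM (replicate 2), the level of 3 counts. It lies 4399 bases before Cyp26a1 on the same strand. Exoc6, whose end lies 1521 bases before Cyp26c1, had 10.4 and 10.95 TPM.

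Cyp26a1 and Cyp26b1 did not differ beyond their spread, since the ranges of their libraries overlapped, although Cyp26a1 was the higher within each library. The log2 ratio of Cyp26b1 to Cyp26a1 was -0.69 in replicate 1 and -0.10 in replicate 2, a mean of -0.39 ± 0.42 (SD, n = 2), which is smaller than its spread. Summed over their genes, synthesis had 69.8 TPM and breakdown 4.18 TPM in replicate 1, and synthesis had 87.1 TPM and breakdown 2.63 TPM in replicate 2. The synthesis sum was thus 16.7-fold and 33.1-fold the breakdown sum, with a mean log2 ratio of 4.56 ± 0.70 (SD, n = 2). Next in the order, the lowest Cyp26b1 value was 1.27 TPM and the highest Aldh1a3 value 1.15 TPM, so these neighbours did not overlap, but their order turned round with the posterior mean estimate of TPM in the same files. Aldh1a1 and Cyp26c1, at the low end, could not be told apart. The sums over synthesis and breakdown genes are sums of RNA over whole tissue and do not measure enzyme activity.

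The carriers were the most abundant of the set. Crabp1, a binding protein of neural crest and of the developing spinal cord and hindbrain (ENSMUSG00000032291.8, chromosome 9, 54764748 to 54773110), had 569 TPM in both libraries, from 6953 and 7186 expected counts. It stood above 98.6% of detected protein-coding genes. Crabp2, a binding protein that delivers retinoic acid to its receptors (ENSMUSG00000004885.5, chromosome 3, 87948666 to 87953376), had 440.1 and 481 TPM, from 6363 and 7187 expected counts. The libraries did not overlap between the carriers, with Crabp1 higher in each. The log2 ratio of Crabp1 to Crabp2 was 0.37 and 0.24, a mean of 0.31 ± 0.09 (SD, n = 2) or 1.24-fold. Together the carriers made up 86.2% and 84.6% of the summed TPM of the 9 genes. Nes, the progenitor filament gene that starts 17701 bases after the end of Crabp2, had 44.9 and 46.5 TPM.

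The pools were then compared gene by gene, as replicate 1 over replicate 2, from counts scaled by library. With 1 library on each side no test was made, and the exact 95% intervals given cover counting error only. Among 12352 genes with a mean of 100 counts or more, 6.76% differed by more than 0.32 on the log2 scale in either direction. Of the 5 genes of the set at that depth, Cyp26b1 was past this threshold, with a log2 ratio of 0.37 and an interval of -0.01 to 0.76 that includes no difference. Its mean of 116.5 counts lay near the lower end of that range. At a mean of 25 to 100 counts, 46.5% of genes were past the same threshold. Crabp1 had a log2 ratio of 0.04 (-0.01 to 0.09), Crabp2 one of -0.09 (-0.14 to -0.04) and Dhrs3 one of -0.19 (-0.27 to -0.11). Scaled by spike-ins, every ratio moved by about -0.20, and the median of the 12352 genes moved from -0.0014 to -0.20. Cyp26b1 was then short of the threshold at 0.17 and Dhrs3 was past it at -0.39. The share of all genes past the threshold was not computed with that scaling. Below that depth, Aldh1a3 had a log2 ratio of -0.12 (-0.73 to 0.48), which leaves its direction undetermined.

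Cyp26a1 differed most, with a log2 ratio of 0.93 (0.39 to 1.55) or 1.90-fold, higher in replicate 1. Of the 2457 genes in its count range, a mean of 25 to 100 counts, 46.5% were past 0.32 on the log2 scale and 21.2% differed by more than 1.5-fold. The share past 1.90-fold was not computed. Aldh1a2 went the other way, with a log2 ratio of -0.28 (-0.36 to -0.21), higher in replicate 2. This was short of 0.32 with counts scaled by library, but the ratio of deposited TPM, -0.33, and scaling by spike-ins, -0.48, put it past that value. The spike-in value includes the shift of about -0.20 common to all genes. Shares of all genes past 0.32 were not computed for either setting. Over all genes with a mean of 100 counts or more the median log2 ratio was -0.0014. Motor neuron markers were lower in replicate 1, 6 of 6, at a median log2 ratio of -0.46. Their summed level was 151 TPM in replicate 1 and 202 TPM in replicate 2. Markers of paraxial mesoderm, the tissue of the somites, were higher in replicate 1, 6 of 6, at a median of 0.28 and sums of 105 and 90.0 TPM. Of 7 meningeal and connective tissue markers 6 were higher in replicate 1, at a median of 0.16 and sums of 369 and 336 TPM. Markers of neural crest and Schwann cell precursors were lower in replicate 1, 5 of 5, at a median of -0.34 and sums of 90.3 and 113 TPM. Postmitotic neuron markers were lower in replicate 1, 6 of 6, at a median of -0.14 and sums of 1733 and 2018 TPM, and floor plate markers were higher, 4 of 4, at a median of 0.18 and sums of 15.52 and 14.01 TPM. No marker of these 6 lists was at 0. Of the other lists, neural progenitor markers were higher in replicate 1 for 2 of 6, dorsal interneuron for 3 of 6, roof plate for 1 of 3 and erythroid for 2 of 5. Endothelial markers were higher for 3 of 5 and surface ectoderm for 4 of 5. The 1 eye and forebrain marker with 10 counts was higher. These marker ratios come from counts scaled by library. Scaling by spike-ins moves every ratio by about -0.20, more than the medians of the floor plate (0.18) and meningeal (0.16) lists. The direction of those lists, and of single markers with small ratios, therefore depends on the scaling. The part of the mix of cells in the ratios of Aldh1a2 and Cyp26a1 was not tested, and in whole tissue fewer cells of a type and less RNA per cell cannot be told apart.

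**Figure D2:**
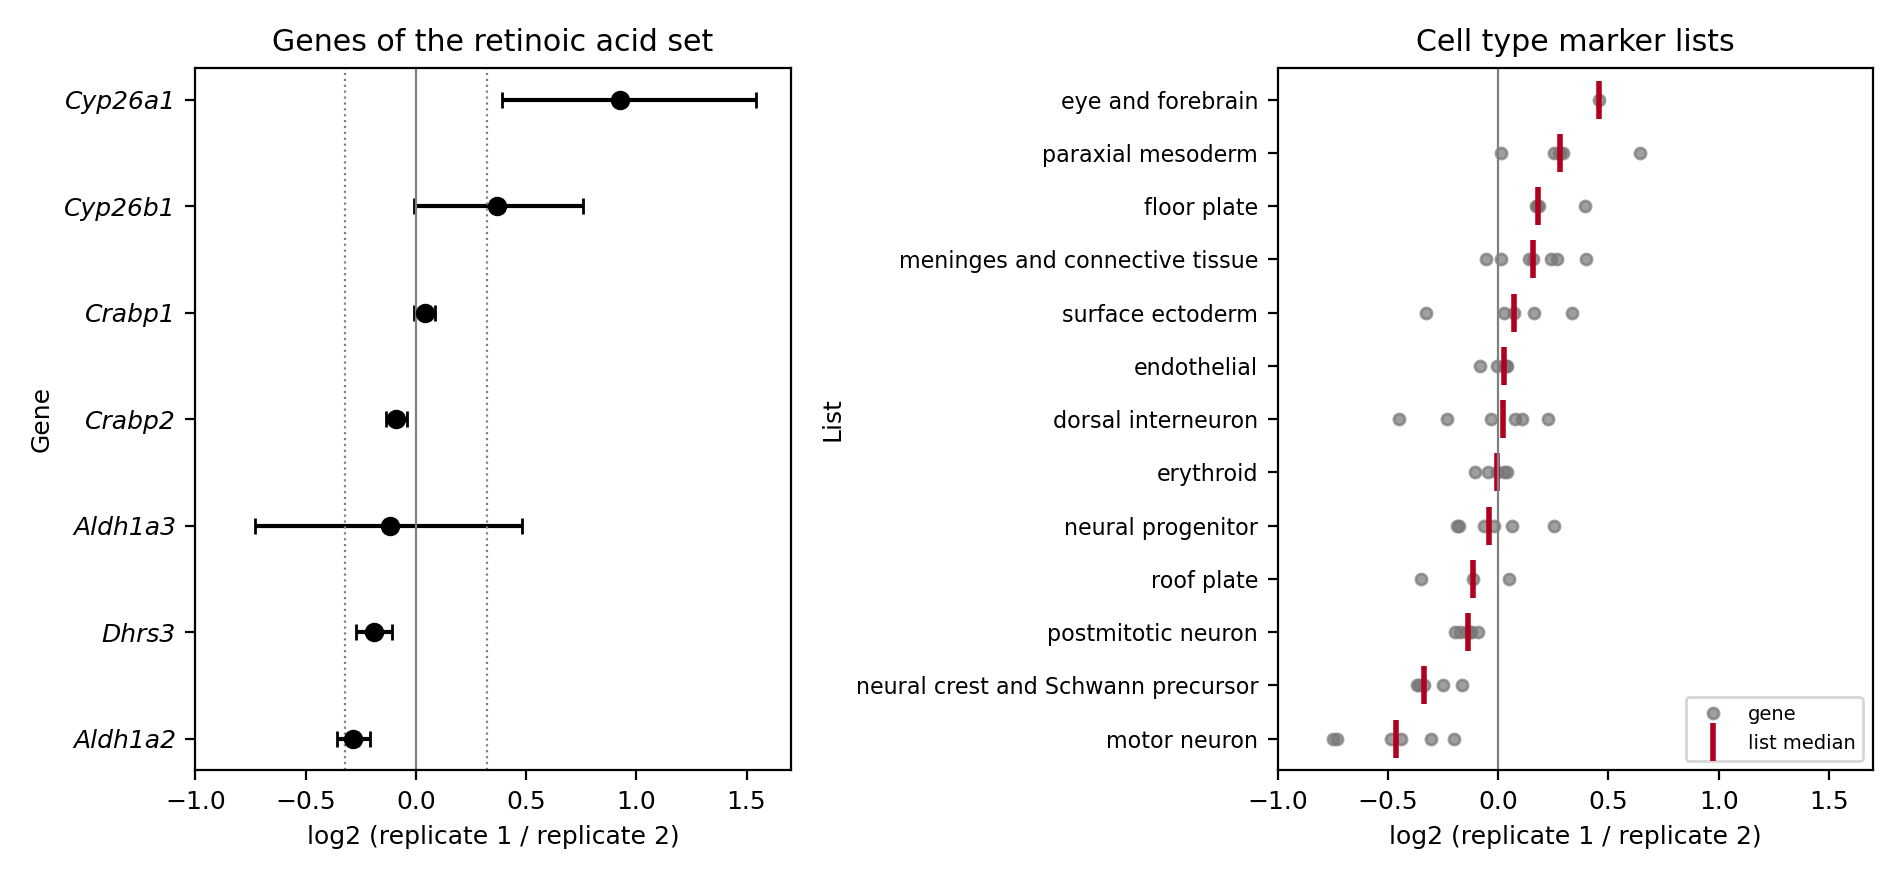
Both panels give the log2 ratio of replicate 1 to replicate 2. On the left are the 7 genes of the set with counts in both libraries, with exact 95% intervals for counting error and dotted lines at 0.32 on either side of 0; on the right are the genes of 13 cell type marker lists with their medians, for genes with 10 counts in at least 1 library. Cyp26a1 lies farthest to the right at 0.93 and Aldh1a2 farthest to the left at -0.28, and the motor neuron list lies lowest on the right at a median of -0.46.

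The tissue label was set against the same marker lists. All 6 neural progenitor markers and all 6 markers of postmitotic neurons were detected, led by Vim at 971 ± 16.4 TPM and Tubb3 at 740.3 ± 86.8 TPM (SD, n = 2). Markers listed for other tissues also reached 1 TPM in both libraries, a rule that 59.9% of protein-coding genes passed. They were all 6 of paraxial mesoderm, all 7 of meninges and connective tissue and all 5 each of surface ectoderm, erythroid and endothelial cells. Passing this rule does not by itself show that a tissue was present. Tcf15, a somite factor, led the mesoderm list at 32.2 ± 0.467 TPM, and Col1a2, a fibrillar collagen gene, the meningeal list at 126 ± 6.68 TPM. Sox10 and the other 4 neural crest markers were detected, at 3.86 to 36.0 TPM, as were all 6 dorsal interneuron markers, all 4 of the floor plate and 3 of 4 of the roof plate, where Gdf7 had 0.26 TPM. The libraries therefore do not assign the transcripts of any of the 9 genes to a cell type.

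Transcript shares within each gene were examined next. The files list a single transcript for 5 of the genes, which leaves 4 with several. Crabp2 was almost wholly its coding transcript Crabp2-201, at 99.7% and 99.9% of the gene's TPM, the rest being a retained intron form. For Cyp26b1 all counts were given to Cyp26b1-202 and none to Cyp26b1-201, in both libraries. The transcripts of Cyp26b1 differ little in length, 4700 and 4751 bases, and with the posterior mean estimate in the same files the share of Cyp26b1-202 was 54.2% and 57.8%, so their division is uncertain. Aldh1a3 was divided between the full-length Aldh1a3-201, at 50.9% and 57.5%, and the shorter coding Aldh1a3-203, at 49.1% and 42.5%, on only 45 and 52 counts.

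Dhrs3 was spread over 7 transcripts. Dhrs3-207, a coding transcript of 1349 bases, led in both libraries at 34.5% and 32.9%, and the coding Dhrs3-206 had 23.5% and 23.7%. Dhrs3-201, annotated as a target of nonsense-mediated decay, the pathway that removes messages with an early stop, had 20.4% and 25.3%, or 17.9 and 25.6 TPM, and stood below Dhrs3-206 in replicate 1 and above it in replicate 2. The coding Dhrs3-205 had 11.98% and 12.38%, and the retained intron form Dhrs3-204 had 4.58% and 4.61%. Dhrs3-202 had 4.50% in replicate 1 and 0.50% in replicate 2, on 77.2 and 10.3 expected counts, and starts at the same base as Dhrs3-207. All 4 coding transcripts together took 74.5% and 69.5% of the gene.

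**Figure D3:**
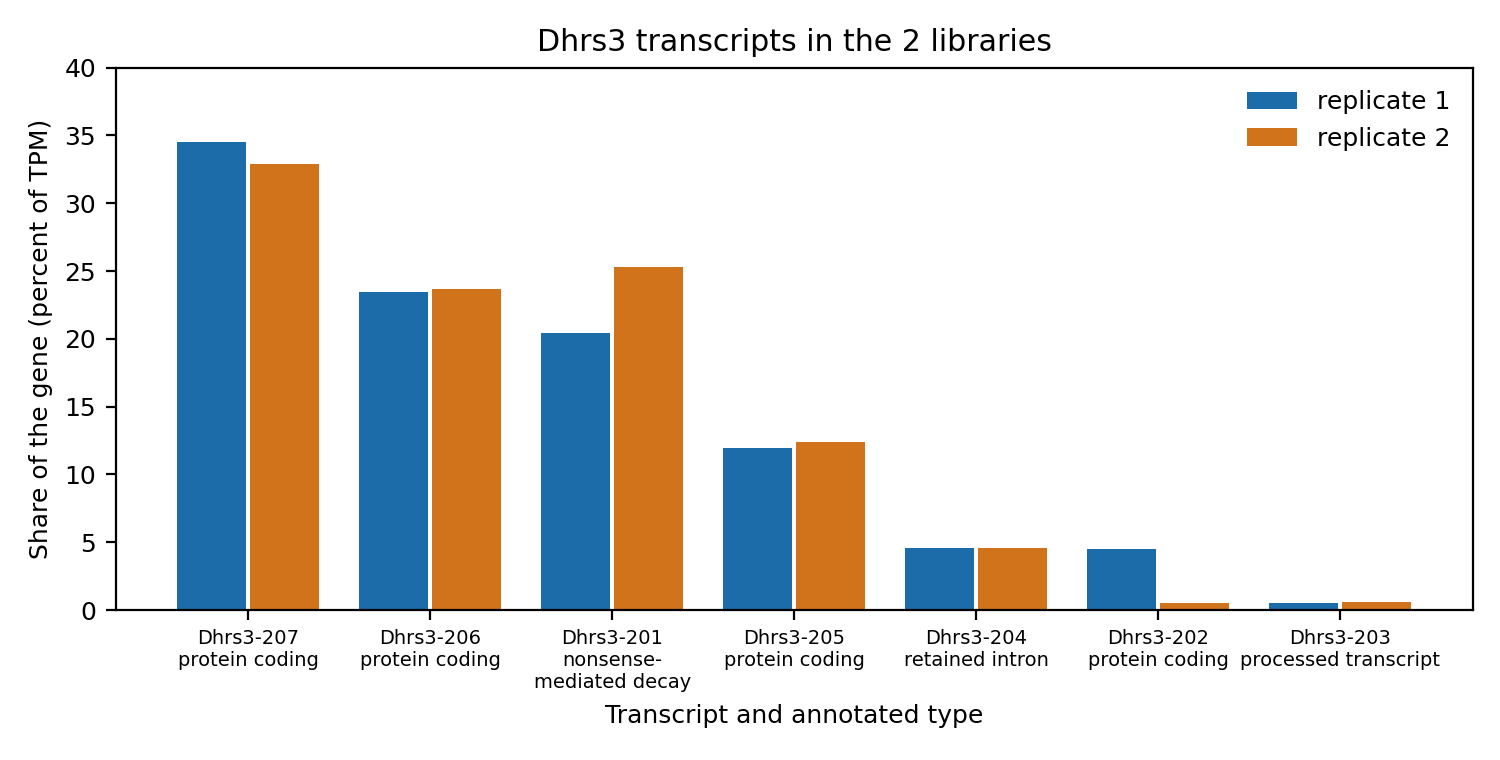
Bars give the share of each annotated Dhrs3 transcript in the TPM of the gene (percent) in replicate 1 and replicate 2. Dhrs3-207 is the tallest in both, at 34.5% and 32.9%, and Dhrs3-201, the transcript annotated for nonsense-mediated decay, stands at 20.4% and 25.3%.

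Sequence shared with other genes touched these values little. No window of 100 bases of Aldh1a2, of the Cyp26 genes, of the Crabp genes or of Dhrs3 occurred in a transcript of another gene, and Aldh1a3 shared 1 of 4601. No annotated gene on either strand overlapped 7 of the 9 genes. Aldh1a1 was overlapped on the minus strand by C730002L08Rik and the processed pseudogene Gm6684, which had 0 counts, and Aldh1a2 by the processed pseudogene Gm48124. C730002L08Rik and Gm48124 are not listed in the files.

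Base composition differed widely between the promoters. The window of Aldh1a2 held 50 CpG dinucleotides and 78.0% G and C, where all windows had a median of 7 CpG with quartiles of 3 and 20. Cyp26a1 held 26 CpG, Crabp1 held 17 and the windows of Dhrs3 held 9 to 21. Cyp26b1 held 9, Cyp26c1 held 5, and both windows of Aldh1a1 held 3 or fewer. Level did not follow this count throughout, since Cyp26a1 held more CpG than Crabp1.

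Other genes of the pathway were read from 5 lists. All 6 receptor genes passed 1 TPM in both libraries, beside 59.9% of protein-coding genes. The median of the receptor genes was 20.2 TPM. The highest were Rara at 58.2 ± 0.276 TPM, Rarb at 54.2 ± 4.64 TPM and Rxrb at 20.5 ± 0.283 TPM (SD, n = 2 each). Rarb, the gene with the second repeat printed above, had 50.9 TPM in replicate 1 and 57.4 TPM in replicate 2, while Cyp26a1 had 2.58 and 1.36 TPM. All 6 coregulator genes passed as well, with a median of 20.3 TPM, and the highest were the corepressor gene Ncor1 at 132 ± 9.62 TPM, Nrip1 at 28.4 ± 0.841 TPM and the coactivator gene Ncoa2 at 21.9 ± 2.88 TPM.

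Of 8 genes of retinol uptake, binding and storage 5 passed, a share close to the 59.9% of protein-coding genes. The median of this list was 3.56 TPM. Fabp5, a fatty acid binding protein that can also bind retinoic acid, had 459.6 ± 19.3 TPM, close to the 461 ± 29.2 TPM of Crabp2. The retinol transporter gene Stra6 had 42.6 ± 0.368 TPM. Lrat, which stores retinol as esters, had 0.04 TPM from 3 and 5 counts, and Rbp7 had 0 counts in both libraries.

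Of 14 genes for retinol and retinaldehyde dehydrogenases and related enzymes 8 passed, a share close to the 59.9% of protein-coding genes. The median of this list was 5.13 TPM. Adh5, whose main substrate is a formaldehyde adduct, led at 193 ± 3.01 TPM, followed by Rdh13 at 25.5 ± 0.417 TPM and Rdh11 at 20.7 ± 0.240 TPM. Rdh10 came sixth, at 14.5 ± 1.55 TPM, and Adh4 and Dhrs9 had 0 counts in both libraries.

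Of 11 genes known to respond to retinoic acid in other settings 8 passed, beside 59.9% of protein-coding genes. The median of this list was 8.04 TPM. Meis1 and Meis2, homeobox cofactors of Hox proteins, had 147 ± 5.32 and 89.8 ± 4.60 TPM. The meiosis gene Stra8 had 0.08 ± 0.113 TPM and the caudal homeobox gene Cdx1 had 0.135 ± 0.0919 TPM. Rarb and Stra6 stand in this list as well as in those above.

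**Figure D4:**
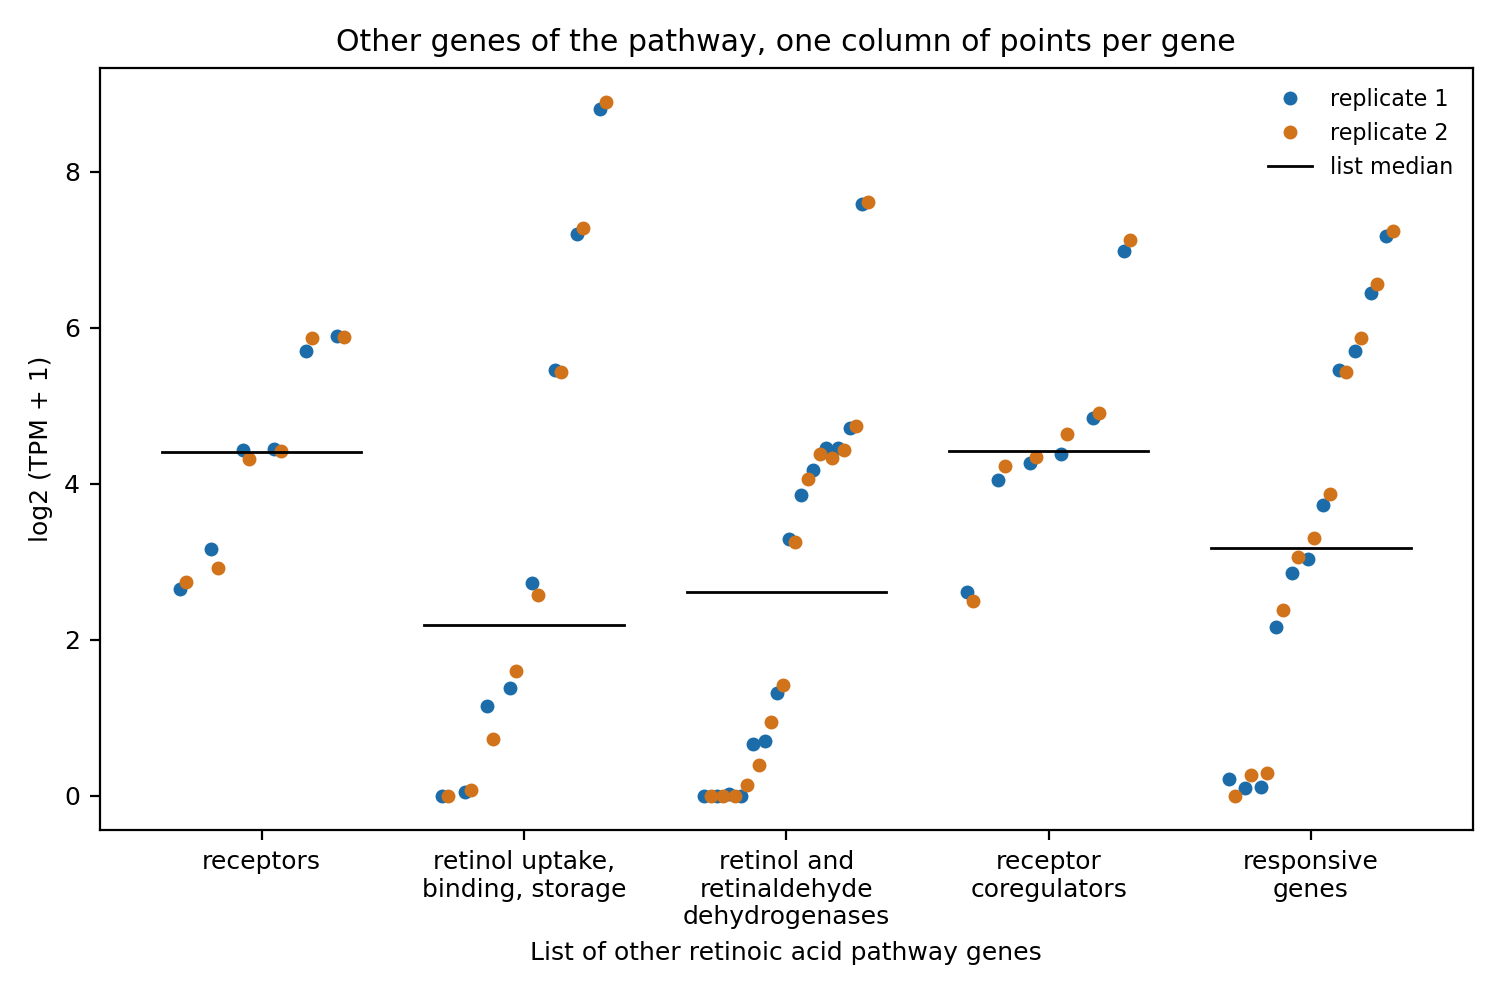
Each gene of 5 lists of other pathway genes is a pair of points, replicate 1 and replicate 2, at log2 (TPM + 1), ordered by mean within its list, with a line at the list median. All 6 receptors and all 6 coregulators lie above 4 TPM, whereas the lists of uptake genes, dehydrogenases and responsive genes reach down to 0 or near it.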

How the data were processed

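RNA of pooled neural tubes was sequenced in 2 libraries of 1 group. The authors deposited expected counts, TPM and, for transcripts, the percent of the gene's TPM, made on mm10 with GENCODE M4 per the file headers and descriptions; the sources used here do not name the aligner, the quantifier or the strandedness. The deposited TPM include spike-ins (13.2% and 11.8% of TPM). Symbols and coordinates came from GENCODE M21 (42462 identifiers matched) and promoter sequences from RefSeq (GRCm38.p6). Spike-ins (97) and numbered entries (26248, with 8 and 15 counts) were left out of gene totals. Expected counts were rounded, and edgeR 4.0.16 gave TMM factors (1.00 in both libraries) and, with a prior count of 2, log2 ratios, checked on simulated counts; DESeq2 1.42.0 gave alternative size factors. Count ranges are exact Poisson intervals and ratio intervals exact Clopper-Pearson intervals at 95%; they cover counting error only, since reads were not tied to single molecules. The series has a single group, so no p-value was computed. The 9 genes, the 18 lists (114 genes) and the comparisons were chosen with earlier results of these data known; the motif search and the band of 25 to 100 counts were added after the files were seen. All 9 genes were named, as were up to 3 leading genes and 2 genes below 1 TPM per pathway list, up to 2 leading genes per cell type list, and neighbouring genes; 1 leading gene is not reported here. Genes named outside this rule are Rdh10 (a comparison partner) and Six6, Sox10 and Gdf7, chosen after their values were seen. Python 3.11.15 with pandas 2.3.3 and scipy 1.17.1 did the rest.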

Additional observations from a re-analysis of the deposited data

How the results depend on the processing

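Of 9 genes, 7 were also detected with the posterior mean estimate, without spike-ins, by full length and in either library alone. Shares of all genes were not computed for these settings. At 0.5 TPM 7 were detected too, beside 63.7% of protein-coding genes. At 5 TPM 4 were, beside 47.9% of protein-coding genes. By level, all 9 genes kept their places without spike-ins, by full length and in either library, with Aldh1a1 and Cyp26c1 tied at 0 in replicate 2; 7 of 9 kept them with posterior mean TPM, where Aldh1a3 passed Cyp26b1. Posterior mean TPM lowered the log2 ratio of Aldh1a2 to Aldh1a3 to 5.52, and counts over full length that of Dhrs3 to Rdh10 to 2.65. Leaving out a library gave 0.24 to 0.37 for Crabp1 over Crabp2, 5.99 to 6.22 for Aldh1a2 over Aldh1a3, -0.69 to -0.10 for Cyp26b1 over Cyp26a1, 2.69 to 2.70 for Dhrs3 over Rdh10 and 4.06 to 5.05 for the synthesis over the breakdown sum. Scaling by spike-ins moved ratios of replicate 1 to replicate 2 by about -0.20, to 0.76 for Cyp26a1, -0.48 for Aldh1a2, -0.39 for Dhrs3, -0.29 for Crabp2 and -0.16 for Crabp1, which changed sign, as it did with deposited TPM (-0.0024). The share of genes that differed was 6.76% past 0.32 on the log2 scale, as reported, and 1.11% past 1.5-fold. The share past 0.32 was 37.0% with no filter on low counts and 46.5% at 25 to 100 counts, where 21.2% passed 1.5-fold. With posterior mean shares the leading transcript took 34.4% of Aldh1a3 and 56.0% of Cyp26b1; for Aldh1a3, Aldh1a3-203 then led in replicate 1. Leaving out a library, its share ranged from 50.9% to 57.5% for Aldh1a3, from 32.9% to 34.5% for Dhrs3 and from 99.7% to 99.9% for Crabp2, and was 100% for Cyp26b1 in both. The cause of these moves was not tested. No paired analysis was possible because the series has a single group. Genes under 60 counts carry wide intervals, and with 2 libraries the SD is itself uncertain.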
